A study of Homo sapiens with 6 samples.

Results

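SNRPA1 and SNRPB, the 2 genes silenced in MDA-LM2 cells, and SNRPB2, the U2 partner of SNRPA1, were followed through RNA sequencing reads over skipped exons. MDA-LM2 cells are breast cancer cells selected from the MDA-MB-231 line for growth in the lung. Total RNA was collected 48 h after small interfering RNAs (siRNAs) were introduced. The siSNRPA1 group had 3 libraries, the siSNRPB group 1 and the siCtrl group, which received control siRNA, 2. The values of a group's libraries are deposited as 1 pool, so no value has a standard deviation and no difference has a replicate check. A skipped-exon event is a set of 3 exons whose middle exon is either included or left out. Events belonged to these genes when the middle exon lay in the gene on its own strand by GENCODE 29. That gave 5 of 47986 events in all: 4 in SNRPA1, 1 in SNRPB and 0 in SNRPB2. The series design mentions SNRPB2 once in place of SNRPB, and the libraries themselves are labelled siSNRPB. It names several siRNAs against each gene without tying them to libraries.

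SNRPA1 encodes U2 A' and SNRPB2 encodes U2 B'', proteins that bind each other and a stem-loop of the U2 small nuclear RNA. The U2 small nuclear ribonucleoprotein (snRNP) pairs with the branch point of an intron, the base that attacks the 5' splice site. SNRPB encodes SmB and SmB', which take the same place in the ring of Sm proteins around the U1, U2, U4 and U5 snRNAs. SNRPB is known to regulate itself through an exon of its own pre-mRNA that carries a premature stop codon, so that transcripts with this exon are removed by nonsense-mediated decay. The siRNAs guide cleavage of matching RNA, for the most part in the cytoplasm, where spliced mRNA is found.

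The siSNRPA1, siSNRPB and siCtrl pools held 27380680, 11465215 and 18558356 compatible reads, meaning reads that fit inclusion, exclusion or both, with 1 event per skipped exon. Levels below are compatible reads per 1000000 of this total. They were compared between pools for a gene and, outside the marker lists of this paragraph, never between genes. Of the genes fixed as markers of a mesenchymal breast cancer line, the 7 of 10 with events summed to 4620, 4834 and 4482 per 1000000 in the siSNRPA1, siSNRPB and siCtrl pools. CD44 alone made up 3432, 3540 and 3266 of these sums. Luminal, epithelial, blood and endothelial genes (9 of 12 with events) summed to 42.8, 30.1 and 44.1 per 1000000. PGR, FOXA1, CDH1, GRHL2 and PTPRC counted as 0 in the siSNRPB pool and were at 5.17 per 1000000 or less in siSNRPA1 and siCtrl. An event that a pool does not list counts as 0 reads there, so these values need not mean absence. GATA3, a luminal gene, was the highest of this list at 22.1, 17.4 and 15.3 in siSNRPA1, siSNRPB and siCtrl. SPARC, a mesenchymal marker, was lower than GATA3 and ESRP2 in each pool, at 3.62, 2.27 and 3.07.

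The 5 exons differ in what they do to the transcript, and their junctions are shown because the read counts rest on them. In GENCODE 29, SNRPB has 3 transcripts and 1 way to skip a single exon. That exon has 124 nt (hg38 chromosome 20, 2467192 to 2467315, minus strand) and occurs only in SNRPB-203, a transcript marked for nonsense-mediated decay. Its length is no multiple of 3. Its reading frame ends at a TAG after 70 codons, 66 nt before the end of the exon, against 231 and 240 codons in SNRPB-201 and SNRPB-202, which lack the exon. AL049650.1, an annotated readthrough transcript on the same strand, uses the exon before it and a shorter form of it, so reads of both genes cannot be told apart there. The lines give the junction into the exon, the junction out of it, the junction that skips it and the premature stop, each 5' to 3'. Capitals mark bases of the skipped exon in the first 2 lines and the stop codon in the last.
SNRPB into the 124-nt exon: gttcagaaagatcaaGTGTGTGAGGGGGGA
SNRPB out of the 124-nt exon: CTGACCCTCTTCAGGgccaaagaactccaa
SNRPB skipping the 124-nt exon: gttcagaaagatcaagccaaagaactccaa
SNRPB-203 stop: tggcctcattgcctatttgtaaagctgTAG

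SNRPA1 has 16 annotated transcripts and 4 single-exon skips, which are the 4 events in the files. The 80-nt exon (chromosome 15, 101286214 to 101286293, minus strand) is a coding exon of SNRPA1-201, the 9-exon transcript of 255 codons. Without it, the frame of SNRPA1-207 ends at a TAA after 154 codons, 3 nt into the next exon. Capitals mark the exon in the junction and splice site lines and the stop codon in the last line. The 3' splice site, the end of the intron before the exon, comes from a transcript that keeps this intron.
SNRPA1 into the 80-nt exon: aaagtgaaactaaaaGAGCGTCAGGAAGCA
SNRPA1 3' splice site of the 80-nt exon: aactctgtgtgtggtgtcgctgtagGAGCG
SNRPA1 skipping the 80-nt exon: aaagtgaaactaaaattttaatccaggtgc
SNRPA1-207 stop: gatttccagaaagtgaaactaaaatttTAA

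The 109-nt exon (101289814 to 101289922) is listed in 1 of the 16 transcripts, a noncoding one. Its last bases are those of Alu repeats: the 15 bases in capitals occur in annotated transcripts of 2473 of 58721 genes, against 1 to 8 genes for the same stretch of the 4 other exons. The junction that skips it belongs to the main transcript, so exclusion reads of this event come from spliced SNRPA1 mRNA.
SNRPA1 out of the 109-nt exon: TAGCTGGGATTACAGggtgatctggaccct
SNRPA1 skipping the 109-nt exon: agtctcgtggaactgggtgatctggaccct

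The remaining events each enter the exon by a junction that is not part of SNRPA1-201. The 101-nt exon (101293293 to 101293393) follows an alternative first exon and lies 120 nt before the second exon of SNRPA1-201. It is listed in 1 of the 16 transcripts, and of its flanking exons the second, of 148 nt, belongs to SNRPA1-201 too. The 47-nt exon (101287656 to 101287702) is in 10 of the 16 transcripts, but its event joins it directly to the first exon, past a pair of coding exons of SNRPA1-201. The 47-nt exon and both its flanking exons are parts of SNRPA1-201, so reads of this event need not come from the form joined to the first exon.
SNRPA1 into the 101-nt exon: cttcattacttcctgATTCTAAGCTTCATG
SNRPA1 out of the 101-nt exon: CGACATAGGTGCTAGggtataaaattcccg
SNRPA1 into the 47-nt exon from the first exon: agctggacctccgggGGTGATCTGGACCCT

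**Figure D1:**
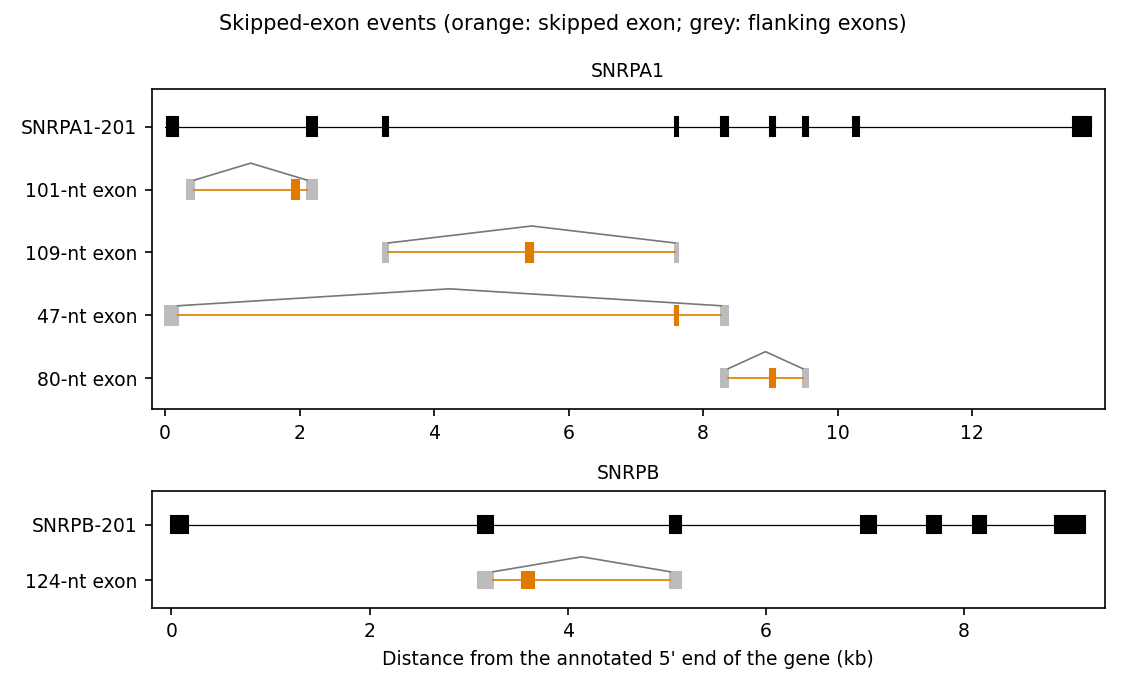
Events of SNRPA1 (upper panel) and SNRPB (lower panel) drawn to scale as distance from the annotated 5' end of each gene in kb, with the main transcript in black, skipped exons in orange and flanking exons in grey. The 4 SNRPA1 events lie between the first exon and the exon after the 80-nt exon. The 109-nt, 47-nt and 80-nt events have exons in common.

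SNRPA1 was at 21.9 compatible reads per 1000000 in the siSNRPA1 pool (95% exact Poisson interval 20.2 to 23.7, 599 reads), 272 in the siSNRPB pool (262 to 281, 3116 reads) and 118 in the siCtrl pool (113 to 123, 2196 reads). The siSNRPA1 pool was the lowest and the siSNRPB pool the highest, and the 3 intervals do not overlap. The siSNRPA1 level was 18.5% of that in siCtrl (95% exact interval 16.9 to 20.2%), or 81.5% lower. By quantitative PCR the labels give knockdowns of 86%, 83% and 75% for SNRPA1. No gene of 7559 with at least 200 compatible reads in some pool had a lower ratio, where 1.47% were at least 2-fold lower and 2.00% at least 2-fold different in the siSNRPA1 pool. In the siSNRPB pool SNRPA1 was 2.30-fold the siCtrl level (2.17 to 2.43), with 32 genes at a higher ratio. At least 2-fold higher were 1.20% of the genes there, and 8.97% differed by at least 2-fold either way. The siSNRPB pool lists 38460 events, beside 46294 in siSNRPA1 and 46252 in siCtrl, and an unlisted event counts as 0 reads. This can raise the share of genes that are lower in siSNRPB, here and below. By how much was not tested. Between the knockdowns, SNRPA1 in siSNRPA1 was 8.05% of its level in siSNRPB (7.36 to 8.79%), again the lowest of all genes. In this comparison 0.582% of genes were at least 2-fold lower and 5.15% at least 2-fold different. Intervals cover counting error only, and reads in overlapping flanking exons can count in more than 1 event. In bulk RNA, fewer expressing cells and less RNA per cell cannot be told apart.

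SNRPB was at 337 compatible reads per 1000000 in the siSNRPA1 pool (330 to 344, 9222 reads), 30.6 in the siSNRPB pool (27.5 to 34.0, 351 reads) and 247 in the siCtrl pool (240 to 254, 4584 reads). The siSNRPB pool was the lowest and the siSNRPA1 pool the highest. The siSNRPB level was 12.4% of that in siCtrl (11.1 to 13.8%), or 87.6% lower, and the labels give 86% by quantitative PCR. Lower ratios were seen in 33 of 7559 genes, and 7.77% of genes were at least 2-fold lower in this pool. In the siSNRPA1 pool SNRPB was 1.36-fold the siCtrl level (1.32 to 1.41), with 607 genes (8.03%) at a higher ratio. That is under the 2-fold mark, which 0.529% of genes passed upward in that pool. Between the knockdowns SNRPB was 11.0-fold higher in siSNRPA1 (9.89 to 12.3) than in siSNRPB. There 17 genes had a higher ratio, and 4.56% were at least 2-fold higher.

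**Figure D2:**
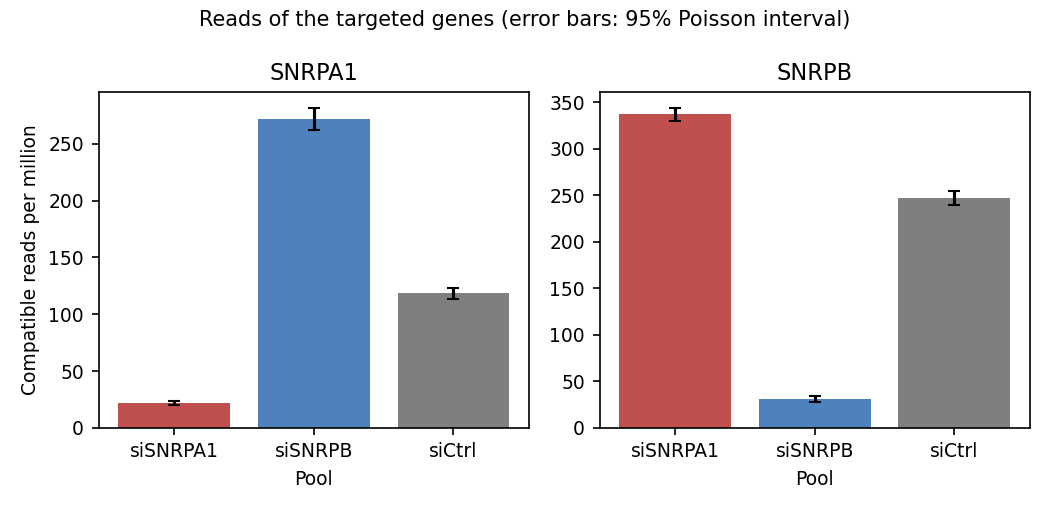
Compatible reads per 1000000 (y axis, from 0) of SNRPA1 (left) and SNRPB (right) in the siSNRPA1, siSNRPB and siCtrl pools, with 95% Poisson intervals. Each gene is lowest in the pool named for it, at 21.9 and 30.6 per 1000000, and highest in the pool named for the other target, at 272 and 337.

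**Figure D3:**
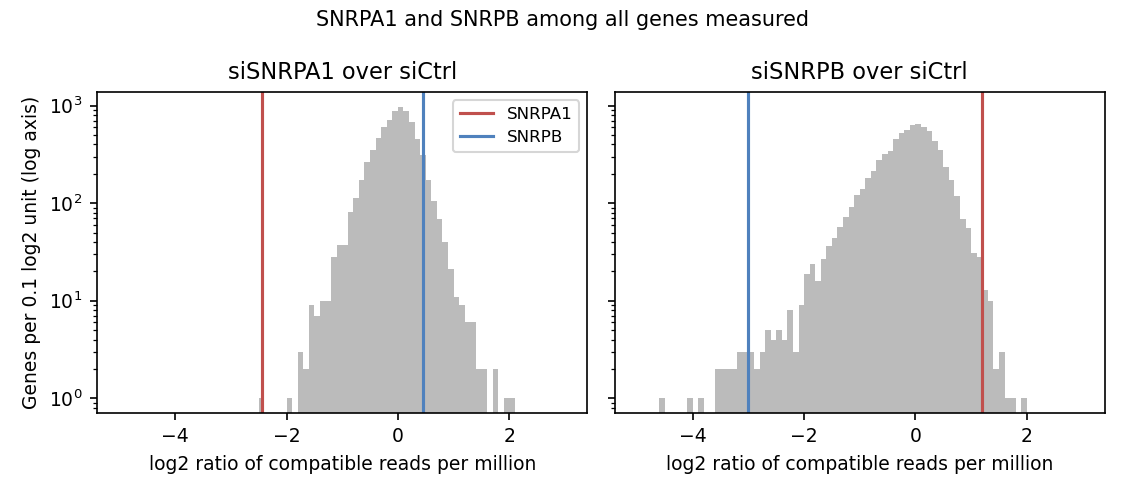
Distribution over genes (y axis, number of genes per 0.1 log2 unit, log axis) of the log2 ratio of compatible reads per 1000000 for siSNRPA1 over siCtrl (left) and siSNRPB over siCtrl (right), for the 7542 of 7559 genes that had at least 10 compatible reads in every pool. SNRPA1 stands at -2.44 and 1.20, and SNRPB at 0.45 and -3.01.

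Reads that join the flanking exons directly count spliced RNA only. For SNRPA1 these are the exclusion reads of the 109-nt event, which numbered 9 in the siSNRPA1 pool, 72 in the siSNRPB pool and 67 in the siCtrl pool. Scaled per 1000000 compatible reads of the pool, siSNRPA1 reached 9.10% of siCtrl (95% exact interval 3.99 to 18.3%), and the siSNRPB value was 1.74-fold that in siCtrl (1.23 to 2.46). For SNRPB they are the exclusion reads of the 124-nt event, with 5329 in siSNRPA1, 167 in siSNRPB and 2856 in siCtrl. Here siSNRPB reached 9.46% of siCtrl (8.05 to 11.1%), and the siSNRPA1 value 1.26-fold (1.21 to 1.32). Beside these stand 18.5% for SNRPA1 and 12.4% for SNRPB by all compatible reads, and by spliced reads alone the intervals of the 2 targets overlap.

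The 4 SNRPA1 events did not give the same ratio of siSNRPA1 to siCtrl. Compatible reads of the 80-nt event, the deepest, were 313 in siSNRPA1, 1937 in siSNRPB and 1331 in siCtrl, and the siSNRPA1 value per 1000000 was 15.9% of siCtrl (14.0 to 18.0%). The 109-nt event gave 9.99% (5.26 to 17.6%) from 14 reads in siSNRPA1. The 47-nt event gave 22.9% (19.4 to 27.0%) and the 101-nt event 27.0% (20.4 to 35.4%), intervals that do not overlap that of the 80-nt event. In the siSNRPB pool the ratios to siCtrl of the same events lay closer together, from 2.03-fold (1.67 to 2.46) at the 101-nt event to 2.36-fold (2.20 to 2.53) at the 80-nt event.

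Reads that match neither isoform, a class that takes in intronic reads and can take in reads that run past the ends of an event, stayed closer to siCtrl in SNRPA1. For the 80-nt event they numbered 328 in siSNRPA1, 722 in siSNRPB and 475 in siCtrl. They made up 51.2% of the event's reads in siSNRPA1 (95% Wilson interval 47.3 to 55.0%), 27.2% in siSNRPB (25.5 to 28.9%) and 26.3% in siCtrl (24.3 to 28.4%). Over the 101-nt, 109-nt and 47-nt events this share was 85.9%, 96.7% and 85.1% in siSNRPA1, against 72.8%, 81.8% and 71.8% in siCtrl. The share was thus higher in siSNRPA1 at each of the 4 events, by 13.1 to 24.9 points. Over 40701 events with at least 100 reads in both pools the median difference was -0.88 points, and 22 events had a larger difference than the 80-nt event. The 109-nt, 47-nt and 80-nt events have exons in common, and all 4 events come from RNA of the same gene. They are therefore not independent of each other.

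Scaled per 1000000 compatible reads of the pool, the reads of SNRPA1 that match neither isoform were 0.47 to 0.64 times the siCtrl value in siSNRPA1, where compatible reads were 0.10 to 0.27 times. All such reads of the pool came to 0.93 times siCtrl. When these reads are counted in the level, SNRPA1 in siSNRPA1 was 40.8% of siCtrl in place of 18.5%, and 17.0% of siSNRPB in place of 8.05%. In SNRPB both classes had similar ratios. Reads that match neither isoform of the 124-nt event made up 46.7% in siSNRPA1, 49.4% in siSNRPB and 48.0% in siCtrl, and in siSNRPB they were 0.131 times siCtrl (0.117 to 0.146) beside 0.124 times for compatible reads. SNRPA1 in the siSNRPB pool had 1.16 to 2.46 times the siCtrl value of such reads, in a pool where they came to 0.72 times siCtrl overall. The lowest was the 101-nt event (1.01 to 1.33) and the highest the 80-nt event (2.19 to 2.77).

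**Figure D4:**
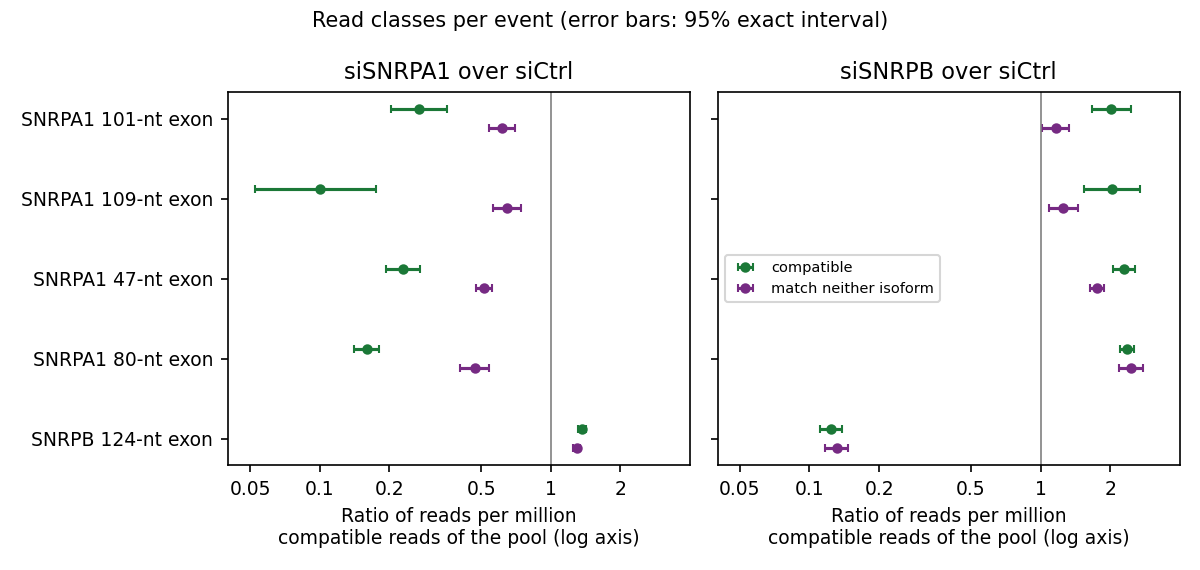
Ratio of reads per 1000000 compatible reads of the pool (x axis, log scale) for the 5 events (y axis), siSNRPA1 over siCtrl on the left and siSNRPB over siCtrl on the right, with 95% exact intervals. Compatible reads (green) and reads that match neither isoform (purple) have intervals that do not overlap at the 4 SNRPA1 events in siSNRPA1 and at its 101-nt, 109-nt and 47-nt events in siSNRPB, with compatible reads the lower in siSNRPA1 and the higher in siSNRPB. They overlap at the 80-nt event in siSNRPB and at the SNRPB event in siSNRPB.

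Inclusion was tested by Fisher's exact test, two-sided, on the reads that fit only inclusion or only exclusion, adjusted by Benjamini-Hochberg over all exons with enough reads. To pass, an exon needed an adjusted p under 0.05 and a difference in the authors' inclusion level, which runs from 0 to 1, of 0.1 or more. Of the 5 exons, the SNRPB exon had enough reads for each comparison and the 109-nt exon of SNRPA1 for siSNRPB against siCtrl, and neither passed. Over all tested exons 17.0% passed in siSNRPA1 against siCtrl (12.8% fell and 4.18% rose). In siSNRPB against siCtrl 21.3% passed (16.7% fell and 4.62% rose), and in siSNRPA1 against siSNRPB 14.7% (6.38% fell and 8.28% rose). Such a test sets the reads of one pool against those of another and does not test the conditions.

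The premature-stop exon of SNRPB was included in few reads of every pool. Inclusion-only reads were 18 of 5347 in siSNRPA1 (0.337%, 95% Wilson interval 0.213 to 0.532%), 4 of 171 in siSNRPB (2.34%, 0.913 to 5.86%) and 29 of 2885 in siCtrl (1.01%, 0.701 to 1.44%). The siSNRPA1 share was the lowest and the siSNRPB share, from 4 reads, the highest. For siSNRPA1 against siCtrl the adjusted p was 0.00246 (Fisher's exact test), with levels of 0.00 and 0.01, a difference below the 0.1 needed to pass. For siSNRPB against siCtrl it was 0.192, and for siSNRPA1 against siSNRPB 0.0204. Scaled per 1000000 compatible reads, inclusion reads were at 0.657 in siSNRPA1, 0.349 in siSNRPB and 1.56 in siCtrl. The siSNRPA1 value was 0.421 times siCtrl (95% exact interval 0.220 to 0.784) while the exclusion reads were 1.26 times. The siSNRPB value was 0.223 times siCtrl (0.0570 to 0.636), while the exclusion reads were 0.0946 times (0.0805 to 0.111). All compatible reads of the gene were 0.124 times siCtrl there. Transcripts that are decayed leave fewer reads, so these shares describe the RNA present at the time of collection.

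The 80-nt coding exon of SNRPA1 had inclusion levels near 1 in each pool. Its level was 0.96 in siSNRPA1 (the authors' interval 0.86 to 1.00), 1.00 in siSNRPB (0.99 to 1.00) and 0.98 in siCtrl (0.96 to 1.00). Exclusion reads, which would mark the SNRPA1-207 type of transcript with its premature stop, were 0 of 145 informative reads in siSNRPA1, 0 of 1107 in siSNRPB and 3 of 724 in siCtrl. A count of 0 allows a share of up to 2.07% in siSNRPA1 and 0.271% in siSNRPB. With so few exclusion reads the exon was not tested. Skipping was rare in each pool, and differences smaller than these limits were not detectable at this depth.

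The Alu-like 109-nt exon was skipped almost always. Its level was 0.04 in siSNRPA1 (0.00 to 0.13), 0.00 in siSNRPB (0.00 to 0.01) and 0.03 in siCtrl (0.01 to 0.06). Of 9 informative reads in siSNRPA1, 72 in siSNRPB and 72 in siCtrl, those with the exon numbered 0, 0 and 5. For siSNRPB against siCtrl the adjusted p was 0.12 (Fisher's exact test). The 0 of 9 reads in siSNRPA1 allow a share of up to 33.3%, and no comparison was made with that pool.

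The 101-nt exon after the alternative first exon had the largest difference in level of the 5, with 0.69 in siSNRPA1 (0.40 to 0.99), 0.01 in siSNRPB (0.00 to 0.04) and 0.11 in siCtrl (0.05 to 0.19). The authors' deposited table gives a difference of 0.58 and a Bayes factor of 770 for siSNRPA1 with siCtrl, and -0.10 and 6.22 for siSNRPB with siCtrl. A Bayes factor of at least 10 with a difference of at least 0.1 was reached by 7.18% and 7.83% of the events in the authors' deposited tables for siSNRPA1 and siSNRPB. The levels rest on 18, 0 and 8 inclusion reads in siSNRPA1, siSNRPB and siCtrl and on no exclusion read in any pool, so the exon could not be tested by reads. Inclusion reads were 23.7% of the event's compatible reads in siSNRPA1 (15.5 to 34.4%), 0 of 239 in siSNRPB, which allows up to 1.26%, and 4.19% in siCtrl (2.14 to 8.05%). Scaled per 1000000 of the pool, however, inclusion reads were 0.657 in siSNRPA1 and 0.431 in siCtrl, a ratio of 1.53 whose interval (0.631 to 4.05) spans 1. The compatible reads that make up the rest of the event, 58 in siSNRPA1 and 183 in siCtrl, fit both isoforms and can lie in the 148-nt exon of the main transcript.

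At the 47-nt exon joined to the first exon the levels were 0.84 in siSNRPA1 (0.65 to 0.98), 0.56 in siSNRPB (0.44 to 0.69) and 0.62 in siCtrl (0.46 to 0.80), and the 3 intervals overlap from 0.65 to 0.69. Inclusion-only and exclusion-only reads were 34 and 1 in siSNRPA1, 80 and 0 in siSNRPB and 62 and 0 in siCtrl. The share of inclusion reads was 97.1%, 100% and 100%, too few exclusion reads for a test. The authors' deposited table gives Bayes factors of 1.55 for siSNRPA1 and 0.33 for siSNRPB against siCtrl.

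**Figure D5:**
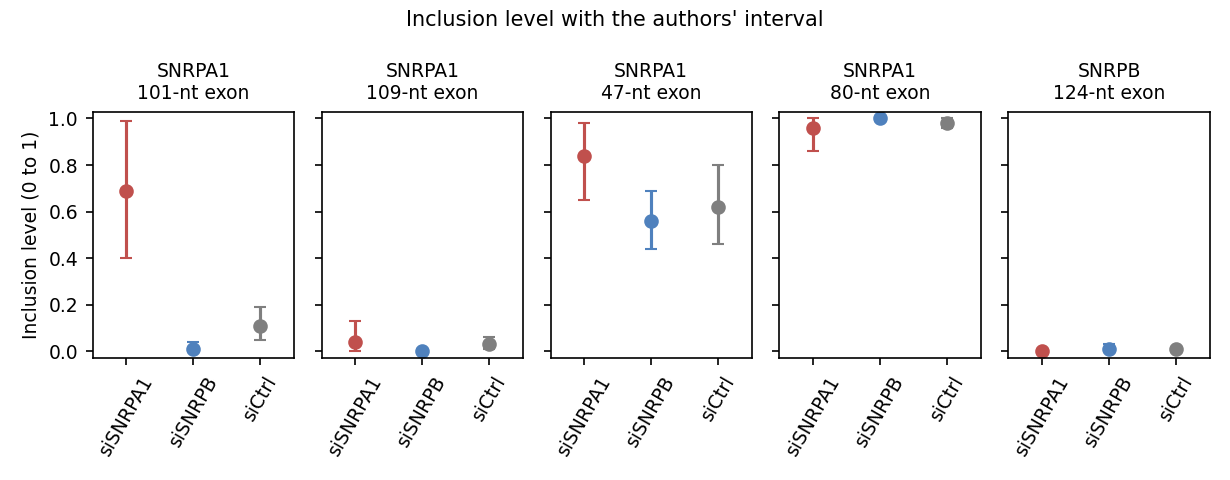
Inclusion level (y axis, 0 to 1) of the 5 exons in the siSNRPA1, siSNRPB and siCtrl pools, with the authors' interval. The 101-nt exon has levels of 0.69, 0.01 and 0.11, while the 80-nt exon stays at 0.96 or above and the 109-nt and 124-nt exons at 0.04 or below.

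SNRPB2 (chromosome 20, 16729961 to 16742563, plus strand) had no event in any pool. Its 3 annotated transcripts, the coding ones with 7 exons and 225 codons, hold 0 ways to skip a single exon, so its level is not measured by this kind of event and is not analysed here. The pool labelled siSNRPB is therefore identified by SNRPB reads at 12.4% of siCtrl, with no value for SNRPB2 beside it.

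The partners of these proteins were taken as 5 lists, described by genes with at least 200 compatible reads in some pool. Of 8 Sm ring genes 6 were measured. Apart from SNRPB they lay between 1.06 and 1.24 times siCtrl in siSNRPA1 and between 1.01 and 1.21 times in siSNRPB, where the medians of all genes were 0.998 and 0.952. Thus SNRPD1, SNRPD2, SNRPD3, SNRPE and SNRPG, which form the ring with SmB, were all within 2-fold of siCtrl. Of 12 U2 snRNP proteins 4 were measured. SF3B1, which holds the branch point region, was 1.5 times siCtrl in siSNRPA1 (1.39 to 1.61) and 1.44 times in siSNRPB (1.32 to 1.58), and SF3B3 was 0.938 (0.889 to 0.990) and 0.585 times (0.540 to 0.633). Of the 38 measured genes of the 5 lists, 1 was past 2-fold in siSNRPA1, SNRPA1 itself (2.63%, beside 2.00% of all genes).

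In siSNRPB 4 of the 38 genes were past 2-fold, a share of 10.5% beside 8.97% of all genes (7.77% lower and 1.20% higher), and they were SNRPA1, SNRPB, SNRPA and SNUPN. This count includes SNRPB, the silenced gene. SMN1 and SMN2, which share reads, both stand among the 38. SNRPA, the U1 relative of SNRPB2, was at 45.5, 15.2 and 39.2 per 1000000 in the siSNRPA1, siSNRPB and siCtrl pools, and the siSNRPB value was 0.387 times siCtrl (0.326 to 0.458). SNUPN, the import adaptor of capped snRNPs, was at 39.3, 50.9 and 23.0 per 1000000, and the siSNRPB value was 2.22 times siCtrl (1.96 to 2.52). GEMIN2, an SMN complex subunit that holds Sm proteins, was just short of the mark at 0.502 times (0.390 to 0.639). Of 16 recruitment and remodelling genes 12 were measured, and of 17 assembly genes 13. DDX46, a helicase needed for U2 binding, was 1.79 times siCtrl in siSNRPA1 (1.74 to 1.85), the highest ratio of these lists there, and DDX42, a related helicase, 0.564 times (0.529 to 0.602). U1 genes SNRPC and SNRNP70 lay between 1.00 and 1.29 times siCtrl in both knockdowns.

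Exons of the 5 lists were held to the same test. Exons of SMN1 and SMN2 share reads but are counted for each gene, and overlapping forms of an exon of U2AF1L4 are counted apart. The counts and shares below therefore do not stand for separate observations. The assembly exons that fell in siSNRPA1 include the 54-nt and 201-nt exons of both SMN genes. In siSNRPA1 against siCtrl 8 of 50 exons fell (16.0%, beside 12.8% of all tested exons) and 0 rose (beside 4.18%). By list, 0 of 1 U2 snRNP, 2 of 19 recruitment, 1 of 5 Sm ring, 5 of 20 assembly and 0 of 5 U1 exons fell. In siSNRPB against siCtrl 4 of 36 exons fell (11.1%, beside 16.7% of all tested exons) and 4 rose (11.1%, beside 4.62%). Of these, 2 of 13 recruitment exons fell and 4 rose, 2 of 12 assembly exons fell, and 0 of 3 U2 snRNP, 0 of 4 Sm ring and 0 of 4 U1 exons passed. In siSNRPA1 against siSNRPB 2 of 46 exons fell (4.35%, beside 6.38%) and 0 rose (beside 8.28%), and both were recruitment exons, 2 of 16.

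The recruitment exons that passed lay in SF1, DDX42, U2AF1, U2AF1L4 and RBM10. In siSNRPA1 SF1, which binds the branch point before U2 does, had a 205-nt exon that fell to 0.31, against 0.52 in siCtrl. In siSNRPB this exon fell to 0.42, against the same siCtrl level. Its inclusion and exclusion reads were 380 and 49 in siSNRPA1, 194 and 33 in siSNRPB and 465 and 27 in siCtrl. By these reads the share with the exon was lowest in siSNRPB, unlike the level. The 37-nt exon of the helicase gene DDX42 fell to 0.84 in siSNRPA1, against 0.99 in siCtrl. U2AF1, the small subunit of the factor that binds the end of the intron, had a 67-nt exon (chromosome 21, 43100453 to 43100519) that rose to 0.70 in siSNRPB, against 0.38 in siCtrl. A second 67-nt exon of U2AF1 (43101366 to 43101432) fell to 0.49 in siSNRPB, against 0.73 in siCtrl. The hg38 build holds a near-identical copy of U2AF1, so its reads are uncertain. Its relative U2AF1L4 had overlapping forms of 1 exon, of which the 67-nt form rose to 0.73 in siSNRPB, against 0.39 in siCtrl, and the 113-nt form to 0.77, against 0.47. The 67-nt form fell to 0.43 in siSNRPA1, against 0.73 in siSNRPB. The 231-nt exon of RBM10, an RNA-binding regulator of exon choice, rose to 0.66 in siSNRPB, against 0.48 in siCtrl, with 80 inclusion and 0 exclusion reads in siSNRPB and 154 and 35 in siCtrl. It fell to 0.53 in siSNRPA1, against 0.66 in siSNRPB. Adjusted p-values of these recruitment exons ran from 2.84e-05 at RBM10 to 0.0436 at the same exon between the knockdowns (Fisher's exact test).

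In the ring and its assembly, the 23-nt exon of SNRPG fell to 0.58 in siSNRPA1, against 0.74 in siCtrl (adjusted p = 8.37e-05, Fisher's exact test). The 54-nt exon of SMN1, whose protein loads Sm proteins onto snRNA, fell to 0.33 in siSNRPA1, against 0.74 in siCtrl, and to 0.45 in siSNRPB. The same exon of SMN2 fell to 0.24 in siSNRPA1, against 0.55 in siCtrl, and to 0.20 in siSNRPB. A 201-nt exon fell to 0.71 in siSNRPA1 in both genes, against 0.83 in siCtrl in SMN1 and 0.82 in SMN2. Inclusion and exclusion reads in each gene were 996 and 12 in siSNRPA1 and 494 and 0 in siCtrl. The levels thus differ more than the shares of the reads that were tested. These genes are near-identical and share reads, so their exons are not separate observations. The 221-nt exon of SNUPN fell to 0.15 in siSNRPA1, against 0.52 in siCtrl, with 26 inclusion and 11 exclusion reads in siSNRPA1 and 30 and 0 in siCtrl. Adjusted p-values of the assembly exons ran from 2.28e-09 to 0.0393 (Fisher's exact test).

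Genes with a pattern nearest to each target were ranked by the distance over the log2 ratios of siSNRPA1 and siSNRPB to siCtrl, among 7542 genes and over 3 pools. For SNRPA1 (-2.44 and 1.20) the nearest were ITGB2 (-1.05 and 0.60), TRIM36 (-0.99 and 0.44) and DCP2 (-0.96 and 0.23), at distances of 1.51, 1.63 and 1.76 log2 units. Each of the 3 was lowered less than SNRPA1 in siSNRPA1. For SNRPB (0.45 and -3.01) they were RGMA (-0.03 and -3.24), LINC02592 (-0.17 and -3.16) and AC091729.3 (-0.09 and -2.67), at distances of 0.53 to 0.63. In compatible reads scaled as above, these genes were at 0.959, 1.22 and 1.31 in siSNRPB and 9.05, 10.9 and 8.35 in siCtrl. The siSNRPB levels rest on few reads of 1 library, near the minimum of 10 compatible reads required in every pool. An event that this pool does not list counts as 0 reads, and how far that lowers these ratios was not tested.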

How the data were processed

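The authors deposited, for each of the siSNRPA1, siSNRPB and siCtrl groups, 1 summary of skipped-exon events in the column format of MISO. Per the file headers it holds the inclusion level as a fraction with its interval bounds, and text fields of read counts by class, which are neither normalized nor split by library. In 2 comparison files the authors deposited a score, the difference in inclusion, together with a ratio, the Bayes factor. These differences equalled those of the summaries, compared at 2 decimals, for all 44653 and 38112 events. The submitters' processing notes name STAR 2.7 and hg38 without roles. The sources used here do not state how libraries were pooled, the width of the interval or the strand setting. Every listed event had at least 20 reads, and an event that a pool does not list was set to 0 reads there.

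Sequences and annotation came from GENCODE 29 (GRCh38). Middle exons matched an annotated exon exactly for 95.7% of events. For each skipped exon only the event with most informative reads entered, 40658 in all. Exons were tested with at least 20 inclusion-only or exclusion-only reads in each pool and at least 5 of each kind over both. The exon test and the read ratio were run on simulated reads. These had no variation between libraries, and exons were called on read shares, not the authors' level. Such a run cannot check calls between pools without replicates. No molecular identifiers are described, so reads are not independent molecules. No column of values went unused for lack of a sample (0). Members and lists were chosen with earlier results of these data known. All events of the members are named, all passing list exons (at most 6 per list and comparison), and the 3 nearest genes by distance. The comparison of classes that match neither isoform was added after seeing the data. Python 3.11.15, scipy 1.17.1, numpy 2.4.6 and pandas 2.3.3 were used.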

Additional observations from a re-analysis of the deposited data

How the results depend on the processing

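No paired analysis was possible because each group's libraries are deposited as 1 pool, and for the same reason no replicate could be left out. SNRPB2 has no event and so no alternative. No result changed direction. With reads that match neither isoform counted, the ratio of SNRPA1 was 0.408 for siSNRPA1 against siCtrl and 0.170 for siSNRPA1 against siSNRPB, and that of SNRPB was 0.156 for siSNRPB against siCtrl and 8.92 for siSNRPA1 against siSNRPB. With informative reads only, SNRPA1 was at 0.0716 for siSNRPA1 against siSNRPB, and SNRPB at 0.0989 for siSNRPB against siCtrl and 13.6 for siSNRPA1 against siSNRPB. With only the event deepest in siCtrl, an alternative chosen after seeing the data, SNRPA1 was at 0.159 for siSNRPA1 against siCtrl and 0.0677 for siSNRPA1 against siSNRPB. Exons that passed in siSNRPA1 against siCtrl, siSNRPB against siCtrl and siSNRPA1 against siSNRPB numbered 1097, 903 and 745. They numbered 711, 539 and 419 at a minimum of 50 informative reads and 554, 512 and 420 at a difference of 0.2. Genes past 2-fold numbered 151, 678 and 389 in the same comparisons. They numbered 633, 1934 and 1432 at a minimum of 50 compatible reads and 48, 323 and 163 at 500. The number of genes that enter differs between these minimums and shares were not computed, so what moved the counts was not tested. Depth limits the 101-nt and 109-nt exons most, with 18 and 9 informative reads in siSNRPA1.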
